A study of Homo sapiens with 6 samples.

Results

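E2F7 and E2F8 encode the atypical members of the E2F family of transcription factors. They were taken by symbol from the table of a knockout comparison, where both have a row, and they make up 2 of its 15794 human genes. They were selected on their log2 fold changes in this same table, which were already known, so those values are given as descriptions, without a test. The study compared eHAP cells given guide RNAs against TFDP1 (genotype knockout, 3 biological replicates) with control cells (genotype wild-type, no gene knocked out, 3 biological replicates). eHAP is a haploid human cell line derived from HAP1. All 6 samples came from cells expressing Cas9 that received a guide plasmid with puromycin resistance, were kept in puromycin between 24 and 72 h after transfection, and were collected on day 5. They are therefore selected pools and not described as clones, and the sources used here do not say what the control plasmid targeted. Polyadenylated RNA was sequenced, with 10000 Drosophila S2 cells added to 500000 eHAP cells as a spike-in.

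Classical E2F factors bind DNA as a pair with a DP protein such as DP1, the product of TFDP1, through 1 DNA-binding domain each. E2F7 and E2F8 differ in carrying 2 such domains in 1 chain, so they bind E2F sites without a DP partner, as homodimers or together, and they lack the region with which other E2Fs bind the retinoblastoma protein. They act mainly as repressors that turn down E2F target genes late in S phase, and their own genes are E2F targets, so that they form a negative feedback on the E2F programme. In mice they act redundantly in embryonic survival, and they also act in the polyploidisation of liver cells.

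The authors' deposited table gives each gene a mean level over the libraries in log2 CPM (read counts scaled to library size), 1 log2 fold change, a likelihood ratio and an adjusted p. No single replicate's values entered this work, so depth and replicate spread are unknown. An approximate standard error (SE) stands in for the error below, made by dividing the size of the log2 fold change by the root of the likelihood ratio. The table does not say which group is the numerator. The targeted gene, TFDP1, had a log2 fold change of 1.17 (approximate SE 0.032) in the authors' deposited table, or 2.25-fold, and a mean of 226 CPM. The amount of TFDP1 transcript thus differed between the groups, but Cas9 cuts need not lower the amount of a transcript. The sign of this value was therefore not used to tell the knockout from the control. Genes are called positive when their sign matches that of TFDP1 and negative when it is opposite. A difference per cell and a difference in the share of cells in S phase, when E2F7 and E2F8 are expressed, cannot be told apart in bulk RNA.

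E2F7 (ENSG00000165891.15) lies on the minus strand of chromosome 12, at chr12:77021247-77065580 of GRCh38 in GENCODE 29, spans 44334 bases and has 13 exons in its longest transcript of 5740 bases. No other annotated gene overlaps it. E2F8 (ENSG00000129173.12) lies on the minus strand of chromosome 11, at chr11:19224063-19241620, spans 17558 bases and also has 13 exons, in a longest transcript of 3519 bases. The span of the antisense gene AC009652.2, on the plus strand, covers all of E2F8. AC009652.2 has no row in the table, and the sources used here do not say whether reads were counted by strand. Overlap of exons was not examined, so whether reads from AC009652.2 were counted for E2F8 is not known.

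The promoter of E2F7 is shown because both genes are known E2F targets and moved to the same side as TFDP1. The sequence below holds the 250 bases before the RefSeq start site (chr12:77065570-77065819, minus strand, RefSeq on GRCh38.p14), printed 5′ to 3′. Capitals mark CCAAT boxes, the element bound by NF-Y, which read ATTGG on this strand, and short matches to the E2F consensus, which read GCGGCAA and GCGCCAA here.
E2F7 promoter: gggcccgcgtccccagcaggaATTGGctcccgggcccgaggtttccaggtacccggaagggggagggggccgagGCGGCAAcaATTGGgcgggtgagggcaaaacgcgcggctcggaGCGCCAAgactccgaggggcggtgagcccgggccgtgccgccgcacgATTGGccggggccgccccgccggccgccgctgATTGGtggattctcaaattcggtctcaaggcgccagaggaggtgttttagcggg
The window searched ran from 250 bases before to 50 bases after the start, on both strands. It held 4 CCAAT boxes, whose first bases are 22, 84, 165 and 197 in the printed sequence. At least 1 CCAAT box was present in 34.6% of the 35116 RefSeq promoters of the same length, and 4 or more in 0.991%. None of the 8-letter E2F forms TTTCCCGC, TTTCGCGC, TTTGCCGC and TTTGGCGC was found in it, and 3.31% of all promoters hold 1. The 7-letter forms left when the first T of each is dropped, added after the first search, matched at 2 places, bases 75 to 81 and 118 to 124. At least 1 of them was present in 13.0% of all promoters and 2 or more in 1.77%. These matches are letters in a window and not measured sites. For E2F8 the promoter table used has no entry.

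E2F7 had a log2 fold change of 1.61 (approximate SE 0.056, 95% interval 1.497 to 1.718) in the authors' deposited table, or 3.05-fold, at a mean of 59.2 CPM. With groups of equal size, that fold and mean correspond to about 89.1 CPM where TFDP1 transcript was higher and 29.2 CPM in the other group. E2F8 had a log2 fold change of 1.06 (approximate SE 0.078, 95% interval 0.90 to 1.21), or 2.08-fold, at a mean of 25.6 CPM. Its reconstructed levels were about 34.6 and 16.6 CPM. Both genes were thus on the side of TFDP1, and E2F7 by the larger fold. The difference between their log2 fold changes was 0.55 (approximate SE 0.096, which ignores correlation between the genes), with a 95% interval of 0.36 to 0.74. The fold of E2F7 was 1.46 times that of E2F8.

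Few genes of comparable abundance moved as far. Of 5069 other genes within 1 log2 CPM of E2F7, 0 had a larger positive and 3 a larger negative log2 fold change in the authors' deposited table, and 99% lay below 0.64. The 3, looked up after the count, were the apolipoprotein gene APOE (-4.11), the matricellular gene SPARC (-3.47) and PPP2R2B (-1.75), which encodes a regulatory subunit of protein phosphatase 2A. Among the 4296 genes within 1 log2 CPM of E2F8, 6 had a larger positive and 30 a larger negative value, and 99% lay below 0.71. Over the whole comparison, 69 genes had a more positive log2 fold change than E2F7, but all 69 lay under the median level of 23.5 CPM, with a median of 0.1998 CPM among them. For E2F8 the number was 268, of which 8 were at or above the median level. The approximate standard errors were ordinary for the level. That of E2F7 stood against a median of 0.064 among its 5069 neighbours in level, and that of E2F8 against 0.080.

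**Figure D1:**
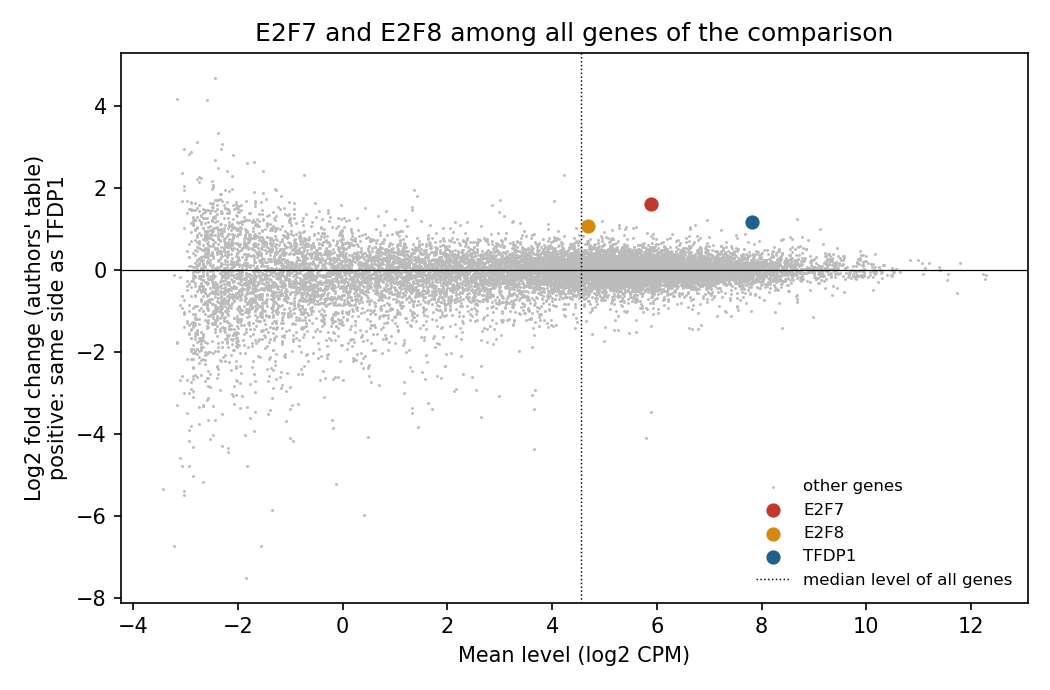
Log2 fold change against mean level (log2 CPM) for the 15794 genes of the authors' deposited table, 1 point per gene, with the dotted line at the median level. E2F7 (1.61) stands above all genes to the right of the dotted line, and E2F8 (1.06) lies just to the right of that line, close to TFDP1 (1.17) in fold change.

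The genes most like the 2 repressors in this comparison, taken as those with the closest log2 fold change within 1 log2 CPM, are given as the 5 closest for each. For E2F7 they were TP73 (1.20), a transcription factor gene that is itself an E2F target, HUNK (1.10), a kinase gene, EZH2 (1.09), the Polycomb methyltransferase, WDR34 (1.05), a dynein-2 chain, and POLD3 (1.05), a DNA polymerase delta subunit. The nearest, TP73, was still 0.41 below E2F7. For E2F8 they were POLD3 and HUNK again, TCF19 (1.03), a gene expressed at the G1/S boundary, SLC1A4 (1.03), a neutral amino acid transporter, and FAM129A (1.02). These 5 lay within 0.041 of E2F8 in the authors' deposited table. The likeness rests on 1 value per gene from 1 comparison of 2 groups.

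Within the E2F family, the 2 atypical genes had the largest fold changes. E2F2, a classical activator, was positive at 0.29 (authors' adjusted p = 1.86e-08), and E2F5, a repressor that works with pocket proteins, and E2F6, a repressor that works without them, were negative at -0.31 (5.01e-05) and -0.34 (9.11e-05). The activators E2F1 (0.01, adjusted p = 0.885) and E2F3 (0.08, 0.220) and the repressor E2F4 (0.01, 0.868) did not pass the authors' test. With the trends of fold change on transcript length and GC content removed, E2F1 (0.17) and E2F4 (0.14) did pass, and with fold changes centred on the median ribosomal protein gene E2F3 (0.16, adjusted p = 0.00333) did. Of 11 E2F, DP and RB genes other than E2F7 and E2F8 that have a row, 4 were positive, TFDP1 among them, 3 negative and 4 not called (median 0.06 on the log2 scale). Over all 15794 genes, 39.5% were called at the authors' adjusted p under 0.05, 17.3% as positive and 22.2% as negative, and the median was -0.03. Positive genes made up 43.9% of those called, and 62.3% with fold changes centred on the median ribosomal protein gene. Besides TFDP1 the positive members were RB1 (0.54), RBL1 (0.47) and E2F2, while TFDP2, which encodes the other main DP partner, was negative at -0.29 and RBL2 was at 0.06 (adjusted p = 0.595).

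Per length of transcript, the 2 repressors changed place in the family. The length used was that of each gene's longest annotated transcript, coding or not, such as 5042 bases for E2F5. Which transcripts the cells express was not examined, and other lengths were not tried. The ranks between genes, ratios and shares below depend on that choice. E2F7 had about 15.5 CPM per kb in the group with more TFDP1 transcript, rank 5 of the 8 E2F genes, and 5.09 CPM per kb in the other, rank 7. E2F8 had about 9.83 CPM per kb (rank 6) and 4.72 CPM per kb (rank 8). In the latter group E2F7 was at 1.08 times the level per kb of E2F8, against 1.58 times in the former. E2F4 and E2F1 were the most abundant in both groups, at 46.1 and 40.3 CPM per kb where TFDP1 transcript was higher and 45.7 and 40.0 in the other. E2F7 and E2F8 together made up 15.6% of the summed level per kb of E2F1 to E2F8 in the former group and 6.73% in the latter. The other 6 genes summed to 137 and 136 CPM per kb, so that nearly all of the net difference in the family's sum, 163 against 146 CPM per kb, lay in the 2 repressors. Among those 6, opposite differences partly cancelled. In the same order of groups, E2F2 was at 17.8 and 14.6 and E2F3 at 19.2 and 18.1 CPM per kb. E2F6 was at 8.15 and 10.3, and E2F5 at 5.76 and 7.15. As E2F7 and E2F8 were selected on their fold changes, their part in the sum restates that selection. With no values per sample, how far neighbours in these orders differ beyond their spread was not tested.

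**Figure D2:**
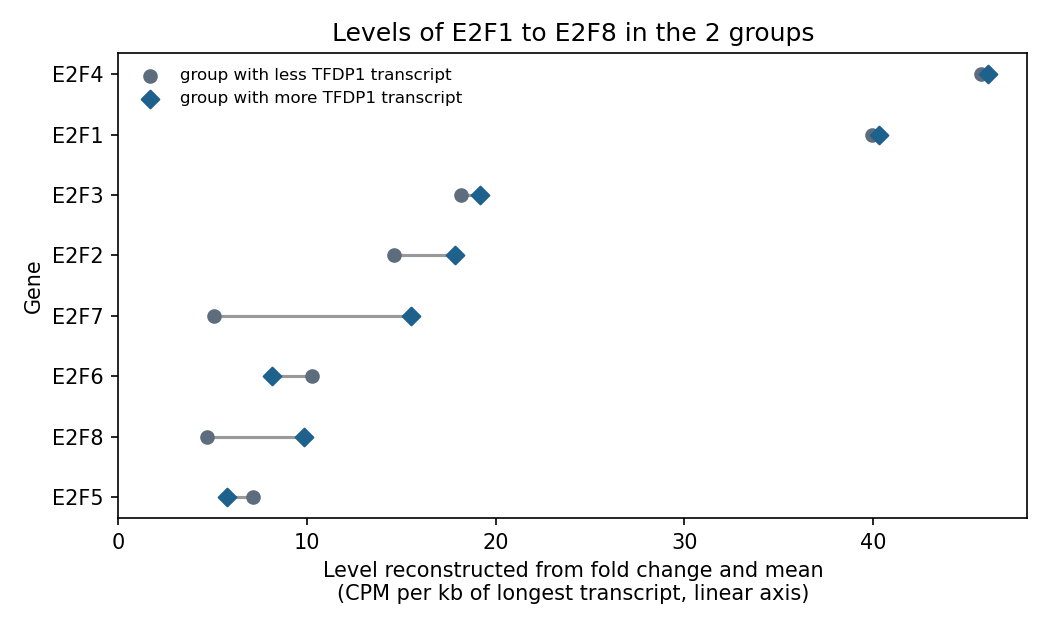
Level of each E2F gene in CPM per kb of its longest transcript, reconstructed from the authors' fold change and mean level, in the group with more (diamonds) and with less (circles) TFDP1 transcript, on a linear axis with no error bars because values per sample were not used. The long connecting lines belong to E2F7 (5.09 to 15.5) and E2F8 (4.72 to 9.83), whereas the symbols of E2F4 and E2F1 nearly coincide.

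Genes of the G1/S and S phase programme that E2F factors control, and that E2F7 and E2F8 repress as a class, leaned to the side of the repressors. Of 68 such genes 54 were positive, 2 negative and 12 not called at the authors' adjusted p, and their log2 fold changes had a median of 0.32. Since 67 of the 68 lay at or above the median level, the nearer background is the 51.9% of genes called there, 25.4% as positive and 26.5% as negative. The positive members with the smallest p were RRM2 (1.23), a subunit of ribonucleotide reductase, EZH2, CCNE2 (2.30), the S phase cyclin E2, USP1 (0.84), a deubiquitinase of DNA repair, TP73 and POLD3. Their adjusted p in the authors' deposited table was at most 6.94e-58. The 2 negative genes were CCNE1 (-0.28, adjusted p = 2.92e-04), which encodes cyclin E1, and MCM5 (-0.11, 0.0191), a subunit of the replicative helicase. The call of MCM5 was lost when fold changes were centred on the median ribosomal protein gene (-0.025, adjusted p = 0.640) or the trends were removed (-0.054, 0.282). Only CCNE2 had a larger positive value than E2F7, and 4 of the 68 had a larger one than E2F8. Most positive members were small changes: 15 of the 54 reached 1.5-fold. The list was assembled with earlier results of these data known and holds E2F1, E2F2, E2F3 and RBL1 as well, so its count is not independent evidence of a direction.

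E2F7 and E2F8 also regulate genes of cytokinesis in liver. All 14 cytokinesis genes listed were positive, with log2 fold changes whose median was 0.30 and whose range was from 0.16 to 0.50. Those with the smallest p were PRC1 (0.50), the kinesin gene KIF4A (0.46), ECT2 (0.42) and RACGAP1 (0.34). PRC1 bundles midzone microtubules, ECT2 activates RhoA at the division plane, and RACGAP1 is a subunit of centralspindlin. The authors' adjusted p of these 4 was at most 2.45e-13. All 14 lay at or above the median level, where 25.4% of genes were positive. None of them reached 1.5-fold, so that each was well below the fold of E2F8. This list, too, was chosen with earlier results of these data known, so its count is not independent evidence of a direction.

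Of 4 vascular genes that E2F7 or E2F8 regulate in vessels, 3 were positive, 0 negative and 1 not called. These genes were also chosen with earlier results of these data known. Over all genes 17.3% were positive and 22.2% negative. The 3 positive genes lay at or above the median level, where 25.4% of genes were positive and 26.5% negative. NRP1, a co-receptor for VEGF that E2F7 represses together with HIF1, had a log2 fold change of 0.77 (adjusted p = 3.03e-33) in the authors' deposited table. FLT4, the receptor for VEGF-C, was at 0.79 (6.26e-23) and VEGFA, the ligand that E2F7 and E2F8 induce with HIF1, at 0.50 (7.54e-17). CCBE1, a lymphatic growth gene, was at 0.43 with an approximate SE of 0.89 and a level of 0.188 CPM, and its change was not detectable at this level (adjusted p = 0.764). A gene that the repressors are known to lower and one that they are known to raise thus both had the sign of E2F7 and E2F8.

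The cofactors and regulators of E2F7 and E2F8 had mostly small values. Of 23 listed, 9 were positive, 3 negative and 11 not called. The median of their log2 fold changes was 0.09. All but 2 lay at or above the median level, where 51.9% of genes were called, 25.4% as positive and 26.5% as negative, so the share of these genes that was called is near the background. Among the partners, the corepressor genes CTBP1 (0.05, adjusted p = 0.487) and CTBP2 (0.11, 0.0515) did not pass the authors' test, and HIF1A, the hypoxia factor that pairs with both proteins, was negative at -0.16 (0.00165). CTBP2 passed when only genes at or above the median level were adjusted (0.0337) and with ribosomal centring (1.98e-04), but was at -0.013 with the trends removed (0.862). CTBP1 passed with ribosomal centring (0.0222) and with the trends removed (0.01001). With ribosomal centring the call of HIF1A was lost (-0.078, adjusted p = 0.151).

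Regulators of protein stability and of checkpoint binding gave mixed values. CCNF, whose product cyclin F marks E2F7 and E2F8 for destruction in G2, was at 0.45 (adjusted p = 6.16e-14), the largest in the list after FBXO5 (0.87, 3.44e-38), which inhibits the anaphase-promoting complex and is itself an E2F target. Other subunits of the cyclin F ligase were at 0.21 for CUL1 (5.81e-05), -0.13 for SKP1 (0.0453) and -0.06 for RBX1 (0.538). For the anaphase-promoting complex, which degrades both proteins in G1, the activator FZR1 was at 0.10 (0.0612) and CDC20 at 0.09 (0.102). Its subunits ANAPC11, ANAPC2 and CDC27 were at 0.21 (0.00159), -0.17 (0.0189) and 0.02 (0.812), and its conjugating enzymes UBE2S and UBE2C at 0.13 (0.0330) and -0.30 (0.548), the last at only 1.06 CPM. CHEK1, the checkpoint kinase that phosphorylates E2F7 and E2F8, was at 0.15 (0.0206). With length and GC trends removed the calls of CHEK1 (0.063, adjusted p = 0.370) and ANAPC2 (-0.012, 0.907) were lost, whereas FZR1 (0.20, 1.68e-05) and CDC20 (0.22, 8.70e-07) passed. Both also passed with ribosomal centring (adjusted p = 1.32e-04 for FZR1, 2.62e-04 for CDC20), and FZR1 did when scarcer genes were left out of the adjustment (0.0404). CDC27 passed as positive with ribosomal centring (0.098, adjusted p = 0.0428) but as negative with the trends removed (-0.142, 0.00260).

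The 14-3-3 proteins bind the phosphorylated repressors, and of their 7 genes YWHAQ (0.16), YWHAH (0.11, adjusted p = 0.0323) and YWHAE (0.10, 0.0421) were positive. YWHAB (-0.05), YWHAG (0.01), YWHAZ (0.03) and SFN (-0.43, at 0.227 CPM) did not pass the authors' test. YWHAZ passed as positive with ribosomal centring (0.108, adjusted p = 0.00350) but as negative with length and GC trends removed (-0.085, 0.0289). YWHAG passed as positive with ribosomal centring (0.092, 0.0238), and YWHAB as negative with the trends removed (-0.153, 0.0136). The p of YWHAQ (7.09e-121) is uncertain, since its approximate SE of 0.0069 was far below those of YWHAZ (0.033) and YWHAG (0.035), which have similar levels. None of the cofactors and regulators had a log2 fold change as large as that of E2F8. The directions of the small values depended on centring: with fold changes centred on the median ribosomal protein gene, 16 of the 23 were positive and 0 negative.

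**Figure D3:**
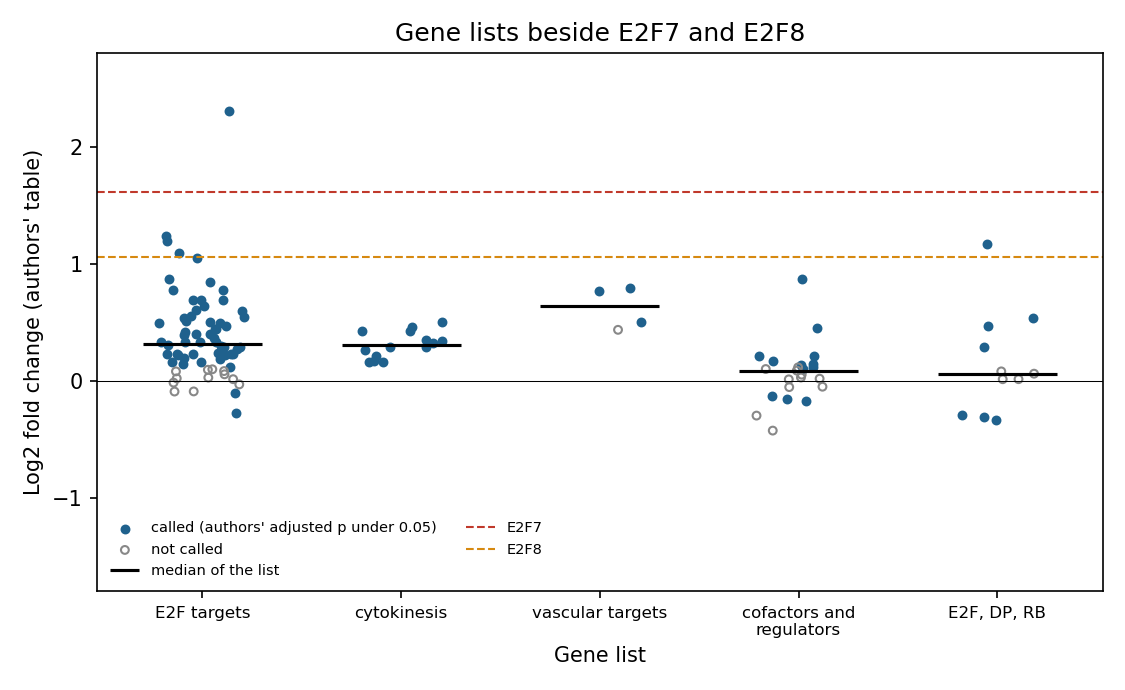
Log2 fold change of each gene, by list, in the authors' deposited table, with filled points for genes called at an adjusted p under 0.05, open points for the others, black bars for list medians, and dashed lines at E2F7 (1.61) and E2F8 (1.06). Most points of every list lie below the 2 dashed lines. The list medians run from 0.06 (E2F, DP and RB genes) to 0.63 (vascular targets).

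Genes beside E2F7 and E2F8 on their chromosomes had mostly small changes. The 6 nearest genes with a row on each side of E2F7 gave 5 positive, 2 negative and 5 not called (median 0.11 on the log2 scale), and those of E2F8 gave 2 positive, 3 negative and 7 not called (median -0.03). That is 12 called of 24, beside 39.5% over all genes, 17.3% as positive and 22.2% as negative, and is not a result about these neighbours. On the lower-coordinate side of E2F7 the nearest gene was CSRP2 (0.20, adjusted p = 0.0449), a LIM protein gene whose start lies 187 kb away, followed by ZDHHC17 (0.12, 0.227), a palmitoyltransferase gene. On the other side NAV3, a neuron navigator gene 259 kb away, was negative at -0.67 (1.28e-21). Beside E2F8 the nearest genes were paralogues of these. ZDHHC13, 125 kb away, was at 0.20 (0.0298), and NAV2, 109 kb away, was negative at -1.13 (4.66e-05) with a level of 2.004 CPM. Each repressor thus had a navigator gene that was negative as its next measured gene on the higher-coordinate side.

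Farther out, the other called neighbours of E2F7 were PHLDA1 (-0.96), OSBPL8 (0.22), PPP1R12A (0.14), LIN7A (0.44) and ACSS3 (2.48, approximate SE 0.86). The value of ACSS3 rests on 0.192 CPM. Those of E2F8 were TMEM86A (-0.78), PRMT3 (0.18) and NELL1 (-1.09). Apart from ACSS3, the neighbours' positive values ended at 0.44 in the authors' deposited table, well under the log2 fold changes of both repressors. On the negative side, NAV2 (-1.13) and NELL1 (-1.09) were larger in size than E2F8 (1.06). The calls of CSRP2, OSBPL8, PPP1R12A, ZDHHC13 and PRMT3 were lost when length and GC trends were removed, where their values lay between 0.01 and 0.08.

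**Figure D4:**
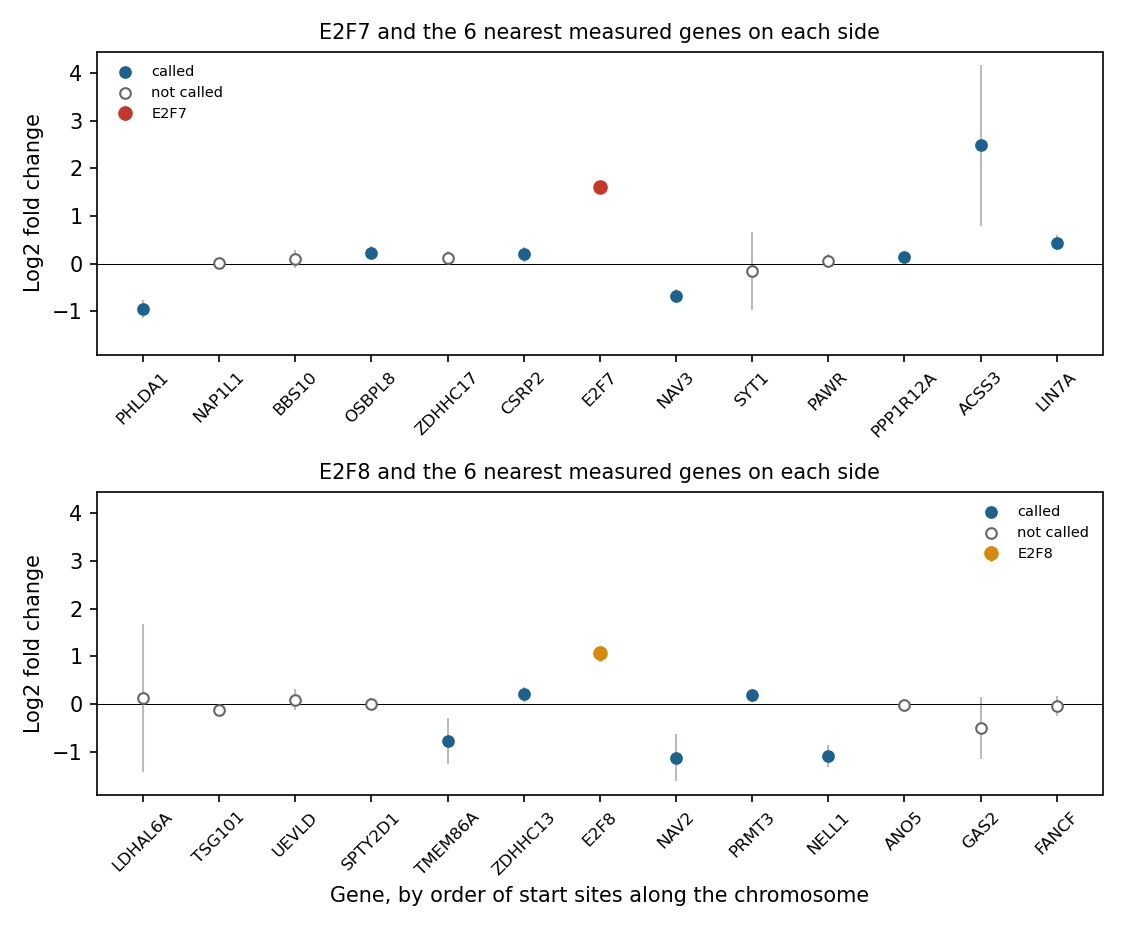
Log2 fold change, with approximate 95% intervals as vertical lines, of E2F7 (top) and E2F8 (bottom) and of the 6 nearest genes with a row on each side, in order of start sites along the chromosome and not to scale in distance. E2F7 (1.61) and E2F8 (1.06) stand above their neighbours except ACSS3 (2.48), whose interval is wide.

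Of 20 blood markers 9 had a row, with 1 positive, 2 negative and 6 not called, and PTPRC, SPI1 and GATA1 had none. They summed to about 116 CPM where TFDP1 transcript was higher and 128 CPM in the other group, mostly from GATA2 (79.5 and 82.6 CPM, adjusted p = 0.463). Of 11 fibroblast markers 6 had a row, with 5 negative and 1 not called. They summed to 31.5 CPM where TFDP1 transcript was higher, with COL1A1 the largest at 17.5 CPM and SPARC at 9.77 CPM. In the other group they summed to 144 CPM, mostly from SPARC (108 CPM). Of 9 epithelial markers 7 had a row (41.9 and 77.2 CPM in sum), with 3 negative and 4 not called, whereas CDH1 had none. Over all genes 17.3% were positive and 22.2% negative. Their part in the values of E2F7 and E2F8 was not tested.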

How the data were processed

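The authors' deposited table gives, per gene, log2 fold changes and log2 CPM levels, a likelihood ratio (a score), and p-values with their adjusted values, per the file headers. Per the submitters' processing notes the tools were HISAT2, Trimmomatic, edgeR and featureCounts, with builds dm6 and hg38. For versions, strand, library scaling and the use of the spike-in, the sources used here state nothing. Genes were called at the authors' adjusted p under 0.05, and no test across samples was made. Alternatives re-centred the fold changes or removed lowess trends (span 0.3) on transcript length and GC content, with a normal test and Benjamini-Hochberg adjustment. Gene models came from GENCODE 29 (GRCh38), matched by symbol for 14777 genes (93.6%). A gene and a list of the plan are not reported here. The members and lists were chosen with earlier results of these data known. Named genes were whole lists for the E2F, DP and RB family, cofactors and vascular genes, up to 6 positive and up to 4 negative called E2F targets and the 4 cytokinesis genes of smallest p, called neighbours, and the 5 most like genes. Python 3.11.15, pandas 2.3.3, numpy 2.4.6, scipy 1.17.1, statsmodels 0.14.6 and matplotlib 3.10.9 were used.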

Additional observations from a re-analysis of the deposited data

How the results depend on the processing

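No paired analysis was possible because the table analysed gives 1 comparison and no values per sample, so replicates were not left out either. Centred on the median ribosomal protein gene, the log2 fold change was 1.69 for E2F7 and 1.14 for E2F8, and with length and GC trends removed that of E2F7 was 1.51. At 1.5-fold or more, positive counts were 15 for E2F targets, 1 for cofactors and regulators, 0 for cytokinesis, 1 for the E2F, DP and RB family and 1 for neighbours, and negative counts were 0 for E2F targets, cofactors and the family. At an adjusted p under 0.01, E2F targets had 1 negative, cofactors had 5 positive and 1 negative, and neighbours 2 positive. With ribosomal centring, E2F targets had 1 negative, and cofactors 16 positive and 0 negative. With the trends removed, E2F targets had 1 negative, cofactors 5 negative and neighbours 2 positive. With 3 neighbours on each side 4 were positive, and at or above the median level 1 neighbour was negative. Reversed signs were CDC27 (-0.14), CTBP2 (-0.013), RBL2 (-0.024), YWHAG (-0.0051) and YWHAZ (-0.085) with the trends removed, and RBX1 (0.026) and YWHAB (0.030) with ribosomal centring. The cause was not tested. The alternatives for single named genes were chosen after seeing the data.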

Other observations

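The share of promoters with an E2F element was computed for genes on either side of the comparison. Of the 11251 genes of the table with a RefSeq promoter, 6.40% held at least 1 of the forms TTTCCCGC, TTTCGCGC, TTTGCCGC and TTTGGCGC on either strand. The share was 10.5% among called positive and 4.81% among called negative genes. Among the 56 listed E2F targets with a promoter it was 53.6%, and the promoter of E2F7 held none. The 7-letter forms left when the first T is dropped, with 2 matches in the promoter of E2F7, were present in 24.4% of the promoters of the table's genes. Their share was 32.6% among called positive genes, 20.8% among called negative genes and 75.0% among the listed targets. CCAAT boxes, of which the promoter of E2F7 holds 4, were present at least once in 42.5% of the promoters of the table's genes, in 47.0% of the called positive and in 42.3% of the called negative ones. These shares are given as descriptions, and no test was made of them. The sides also differ in level. Over all genes, 2006 of 2738 positive genes but 2090 of 3506 negative genes lay at or above the median level. Shares at matched levels were not computed, and the listed E2F targets were not left out of either side.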
